A study of Mus musculus with 4 samples.

Results

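The genes described here encode the nuclear subunits of oxidative phosphorylation (OXPHOS) and were followed in CD4 T cells that carried an empty retrovirus or a retrovirus encoding Tox. They were chosen by symbol. Symbols beginning with Nduf and a subunit letter stood for complex I, Sdha to Sdhd for complex II, Uqcr and *Cyc1* for complex III, Cox followed by 4 to 8 for complex IV, and Atp5 for complex V. Of 24369 genes listed, 85 matched. Expected counts of 10 or more in at least 2 libraries were found for 82 of them, and all 82 were among the 14143 genes tested. They were 37 genes of complex I, 4 of complex II, 9 of complex III, 15 of complex IV and 17 of complex V. The 3 genes left out belonged to complex IV. *Cox7b2* and *Cox8c*, testis isoforms, had 0 counts in each library, and *Cox8b*, an isoform of heart, muscle and brown fat, had 8 and 8 counts with the empty vector and 3 and 4 with Tox.

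OXPHOS takes place in the inner mitochondrial membrane. Complex I and complex II pass electrons from NADH and succinate to coenzyme Q, complex III hands them to cytochrome c, complex IV hands them to oxygen, and complex V (ATP synthase) uses the proton gradient built by complexes I, III and IV to make ATP. Most subunits are encoded in the nucleus and imported, and a few core subunits are encoded by mitochondrial DNA. Activated T cells build up mitochondria as they grow and divide, and lose respiratory capacity under chronic stimulation, a state in which the DNA-binding protein Tox is highly expressed.

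RNA-seq was carried out on naive CD4 T cells from the spleen of WT mice that had been activated without polarizing cytokines by IL-2 and antibodies to CD3 (bound to the plate) and CD28 (in solution). The labels list the last agent as a recombinant human form of anti-CD28, whereas the methods give recombinant human IL-2. On day 2 the cells received MSCV-IRES-eGFP, the empty vector (EV RV), or MSCV-Tox-IRES-eGFP (Tox RV). On day 5 they were restimulated and sorted as CD4 GFP+ cells. For the restimulation the methods give biotinylated anti-CD3 with streptavidin, whereas the results text of the study gives anti-CD3 and anti-CD28. All of these steps were shared by both groups, which by the methods differed only in the *Tox* insert, so Tox RV is a model of forced expression from a viral promoter. There were 2 libraries per group, described as individual mice. Whether replicate numbers link an EV RV culture with a Tox RV culture is not given.

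The libraries held 46989997 and 74548723 expected counts for EV RV replicates 1 and 2, and 61442264 and 49012254 for Tox RV replicates 1 and 2. *Tox* was at 11.7 and 5.73 counts scaled to 1000000 per library (CPM) with EV RV and at 121 and 99.9 CPM with Tox RV, in the direction of the labels. EV RV replicate 1 stood apart. It lay at -53.8 on the first principal component, which held 58.0% of the variance, with the other libraries at 5.70 to 25.8. *Rn45s*, the ribosomal RNA precursor, took 24.7% of its counts and 7.14% to 11.97% of those of the others. CD4 T cell markers summed to 1990 to 2697 CPM over the 4 libraries. CD8 T and NK cell markers were detected for 5 of 6 genes, with *Ncr1* at 0, and summed to 56.6 and 16.5 CPM in EV RV and to 32.9 and 11.3 CPM in Tox RV. B cell markers summed to 1.16 to 1.62 CPM, with *Ms4a1* and *Pax5* at 0, and 7 myeloid markers to 4.07 to 5.64 CPM.

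None of the 82 OXPHOS genes passed an adjusted p below 0.05 between Tox RV and EV RV in edgeR, where the smallest adjusted p among them was 0.897. The same test called 0 of the 14143 genes (0%), so the count of 0 is not particular to OXPHOS. For *Tox* itself the adjusted p was 3.8e-24 in DESeq2, while in edgeR, at a log2 fold change of 3.68, it was 0.490. The edgeR test thus did not call even the inserted gene. At an unadjusted p below 0.05 there was 1 OXPHOS gene, *Cox4i2* (1.22%), against 3.62% of all genes. It was higher in Tox RV, as were 1.07% of all genes at that p, and 0 OXPHOS genes were lower, against 2.55%. DESeq2 called 0 OXPHOS genes against 0.121% of all genes, and at an unadjusted p below 0.05 again only *Cox4i2*, against 3.21%. With 2 libraries per group an exact two-sided permutation test of a single value cannot go below 0.3333.

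The fitted log2 fold change, Tox RV over EV RV, was above 0 for 71 of the 82 genes (86.6%), against 50.4% of all genes tested. Its median was 0.14, with quartiles of 0.08 and 0.22, against 0.0036 for all genes, with quartiles of -0.25 and 0.18. These differences were small against their errors. In 57 of the 82 genes the log2 fold change was smaller than its own standard error (SE), and in 80 it lay within 0.5 of 0. Among the 76 genes with a mean of over 10 transcripts per 1000000 (TPM), it ran from -0.26 for *Ndufs7* to 0.44 for *Atp5f1*. Each Tox RV library exceeded each EV RV library in 22 of 82 genes (26.8%), against 18.6% of all genes, and both were below in 3 (3.66%), against 17.4%. The remaining 57 overlapped.

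**Figure D1:**
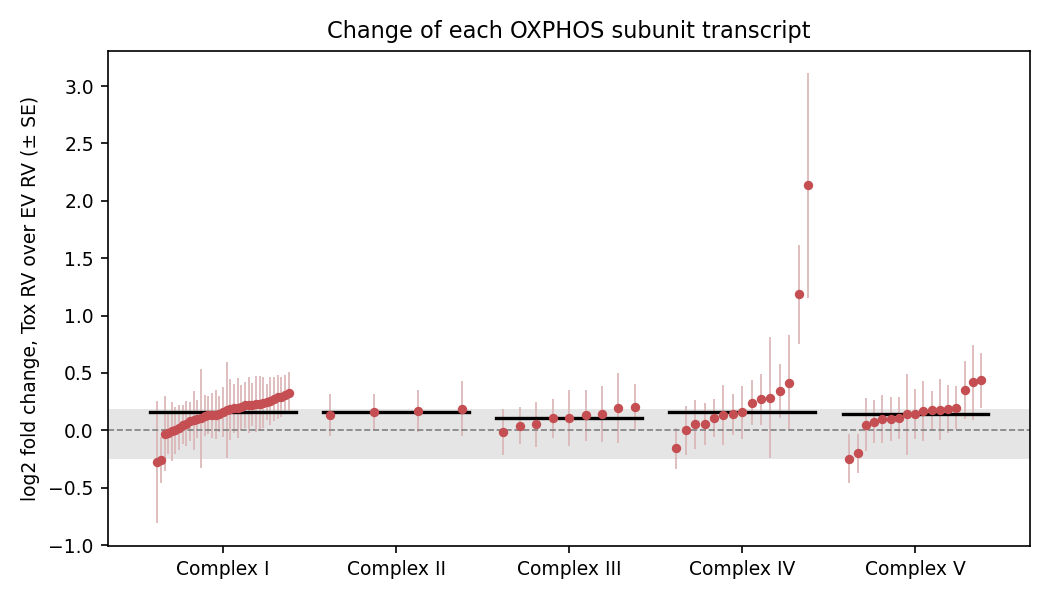
Log2 fold change of each tested OXPHOS gene, Tox RV over EV RV, with its SE, sorted within each complex (n = 2 libraries per group). Black lines are the complex medians, from 0.11 in complex III to 0.16 in complex II, and the grey band spans the quartiles of all genes tested, -0.25 to 0.18. Most points lie just above the dashed line at 0 with errors that cross it, and the points furthest up in complex IV are the low-count isoforms *Cox4i2* and *Cox6a2*.

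Library by library, these small positive values followed a single EV RV library. EV RV replicate 1 was the lowest of the 4 libraries for 68 of 82 genes (82.9%), against 37% of all genes tested, and was below EV RV replicate 2 for 71 of 82 (86.6%), against 49.7%. Taken as the deviation from each gene's own mean of log2 CPM, the median over the 82 genes was -0.29 in EV RV replicate 1, 0.11 in EV RV replicate 2, 0.04 in Tox RV replicate 1 and 0.13 in Tox RV replicate 2. The Tox RV libraries therefore lay on either side of EV RV replicate 2. The median difference between the EV RV libraries, replicate 1 minus replicate 2, was -0.37 on the log2 scale, larger in size than the median fold change. Between the Tox RV libraries, replicate 1 minus replicate 2, it was -0.09. Without EV RV replicate 1 the median log2 fold change was -0.04, with 35 genes above 0 and 47 below, and without EV RV replicate 2 it was 0.39, with 76 above 0 and 6 below. In the latter fit 3 OXPHOS genes (3.66%) passed an adjusted p below 0.05 in edgeR, close to the share over the whole table (600 genes, 4.16%), so the count is not a result about OXPHOS. They were *Atp5f1*, *Atp5c1* and *Ndufa1*, at adjusted p of 0.0436, 0.0484 and 0.0453.

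**Figure D2:**
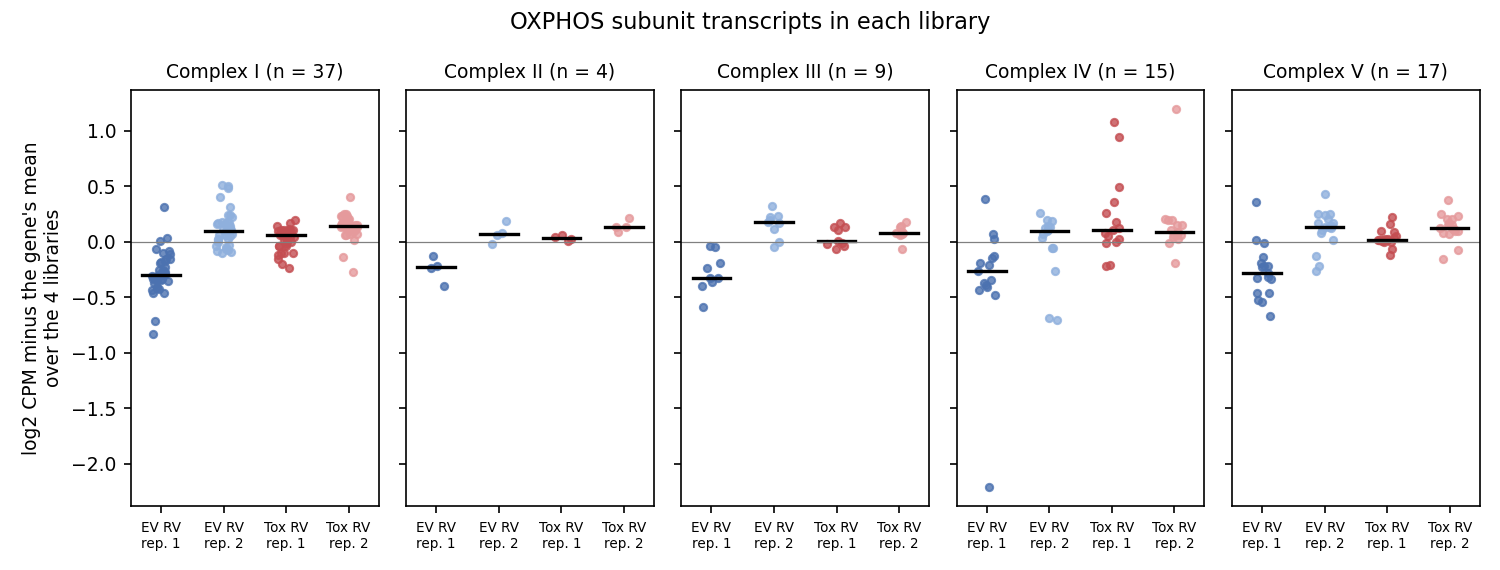
Deviation of each OXPHOS gene from its own mean over the 4 libraries, in log2 CPM, by complex and library. Each point is a gene and each black line a median. In each complex the median of EV RV replicate 1 is lowest, from -0.33 to -0.23, and the medians of the other 3 libraries lie between 0.01 and 0.18. Single points spread more widely, and some genes are highest in EV RV replicate 1.

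OXPHOS transcripts are short, and the values of all genes varied with transcript length. The median length was 685.5 bases for the 82 genes and 2721 bases for all genes tested, and the median GC content was 52.0% and 50.4%. Among all genes the median log2 fold change went with length class from 0.14 at up to 500 bases to -0.13 above 5000 bases. In the class of 500 to 1000 bases, which held 45 of the OXPHOS genes, it was 0.14 for the OXPHOS genes and 0.11 for all genes. At 1000 to 2000 bases, with 21 OXPHOS genes, it was 0.19 against 0.06. Across genes, which are not independent replicates, Spearman's rho of fold change with length was -0.20 over all 14143 genes and 0.08 over the 82 OXPHOS genes. In the class of 500 to 1000 bases the median difference of EV RV replicate 1 from replicate 2 was -0.37 for the OXPHOS genes and -0.18 for all genes. With length taken out as an offset, the median of the 82 genes was 0.07, with 55 above 0 and 27 below. The share of *Rn45s* and the summed level of the CD8 T and NK cell markers were highest in EV RV replicate 1, the latter through *Klrk1* and *Klrd1*, while *Cd8a* was lowest there at 1.54 CPM and *Cd8b1* was at 3.10 CPM against 3.21 CPM in Tox RV replicate 1. Their part in the OXPHOS values was not tested. In bulk samples, fewer cells of a type and less RNA per cell cannot be told apart.

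The level of OXPHOS transcripts was also summed per length. The 85 genes summed to 13752 and 17109 TPM in EV RV and to 15589 and 16434 TPM in Tox RV, which was 1.38%, 1.71%, 1.56% and 1.64% of all TPM. Mean ± SD was 15430 ± 2374 TPM for EV RV and 16011 ± 598 TPM for Tox RV (n = 2 each), and the Tox RV libraries lay between the EV RV libraries. The balance among complexes varied little. Complex V took 32.8% to 33.9% of the OXPHOS sum, complex I 26.5% to 27.6%, complex IV 24.5% to 26.0%, complex III 11.3% to 11.9% and complex II 2.81% to 2.96%. The 82 genes that passed the count rule spanned a wide range of mean TPM over the 4 libraries, from 0.54 for *Cox6a2* to 926 for *Atp5b*, with a median of 145.

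**Figure D3:**
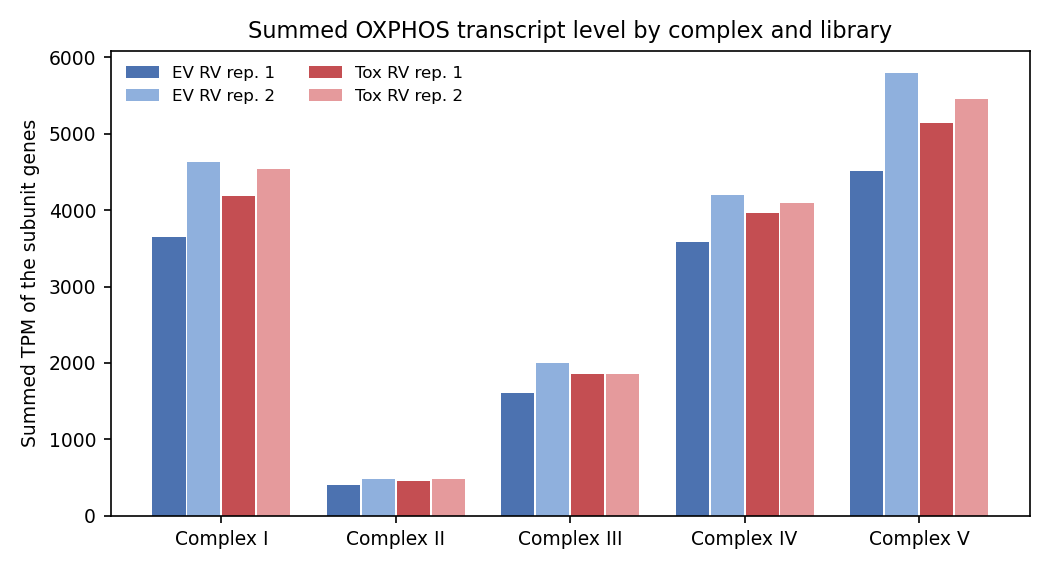
Summed TPM of the OXPHOS genes of each complex in each library, as bars that start at 0. EV RV replicate 1 has the lowest bar in each complex, and EV RV replicate 2 has the highest in all complexes but complex II, where Tox RV replicate 2 is highest at 486 TPM.

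The promoters of these genes are known to share binding sites for NRF1, for GABPA (also called nuclear respiratory factor 2) and for YY1, factors that coordinate nuclear genes for mitochondria. RefSeq promoter windows on GRCm38.p6, from 250 bases before to 50 after the transcription start, were matched for 69 of the 85 genes, with the first window listed for each gene. Both strands were searched for the letters GCGCA and GCGC separated by 1 base (NRF1), CCGGAAG (GABPA) and AAGATGGC (YY1). The NRF1 letters were found in 16 of 69 windows (23.2%), against 4.78% of 27025 windows. The latter were those of all genes with a RefSeq window, expressed in these cells or not, and so are not limited to the 14143 genes tested. The GABPA letters were found in 15 (21.7%), against 9.12%, and the YY1 letters in 10 (14.5%), against 2.88%. At least 1 of the 3 was found in 36 windows (52.2%), against 15.2%. Of the 10 YY1 matches, 9 began between bases 23 and 39 of the transcript, counted from 1 at its start. The following 4 windows show how densely such letters can lie, with matches in capitals, which do not overlap. *Sdha* and *Ndufb4* hold 3 NRF1 matches each, *Ndufs6* an NRF1 and a YY1 match, and *Cox6a1* 2 NRF1 matches and a GABPA match.
*Sdha*, chr13:74350191-74350490, minus strand: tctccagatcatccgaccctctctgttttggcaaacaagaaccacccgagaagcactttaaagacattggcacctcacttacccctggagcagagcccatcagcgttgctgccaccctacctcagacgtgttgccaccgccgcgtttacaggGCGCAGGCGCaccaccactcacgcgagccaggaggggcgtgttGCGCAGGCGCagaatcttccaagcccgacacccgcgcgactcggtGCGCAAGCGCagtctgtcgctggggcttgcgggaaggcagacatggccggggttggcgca
*Ndufb4*, chr16:37654319-37654618, minus strand: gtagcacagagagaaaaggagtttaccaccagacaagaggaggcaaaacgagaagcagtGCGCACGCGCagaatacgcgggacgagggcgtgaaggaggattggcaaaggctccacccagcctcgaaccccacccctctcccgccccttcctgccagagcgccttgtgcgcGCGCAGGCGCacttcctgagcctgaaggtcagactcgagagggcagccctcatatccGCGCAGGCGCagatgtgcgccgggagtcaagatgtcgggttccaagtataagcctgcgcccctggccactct
*Ndufs6*, chr13:73328433-73328732, minus strand: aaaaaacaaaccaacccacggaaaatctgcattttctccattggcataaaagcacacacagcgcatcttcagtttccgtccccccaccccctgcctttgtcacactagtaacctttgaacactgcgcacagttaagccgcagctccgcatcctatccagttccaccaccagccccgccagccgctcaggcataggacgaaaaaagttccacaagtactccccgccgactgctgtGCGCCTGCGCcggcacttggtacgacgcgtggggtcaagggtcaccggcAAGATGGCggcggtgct
*Cox6a1*, chr5:115348909-115349208, minus strand: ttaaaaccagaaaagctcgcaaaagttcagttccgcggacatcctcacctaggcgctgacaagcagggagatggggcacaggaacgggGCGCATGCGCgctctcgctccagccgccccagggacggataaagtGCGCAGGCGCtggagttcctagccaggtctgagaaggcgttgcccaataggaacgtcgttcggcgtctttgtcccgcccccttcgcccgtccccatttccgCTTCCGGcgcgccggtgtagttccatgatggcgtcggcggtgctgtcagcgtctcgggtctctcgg

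Windows with and without these letters belonged to genes with close median values. The median log2 fold change, Tox RV over EV RV, was 0.17 for the 16 genes with NRF1 letters, 0.14 for the 15 with GABPA letters, 0.12 for the 10 with YY1 letters and 0.14 for the 31 tested genes whose window held none of the letters. Among the 4 genes shown above, *Sdha* (the flavoprotein of complex II), *Ndufb4* and *Ndufs6* (accessory subunits of complex I, chosen for their windows) had log2 fold changes of 0.16 ± 0.16, 0.20 ± 0.20 and 0.20 ± 0.26 (SE). *Cox6a1*, an accessory subunit of complex IV, was at -0.16 ± 0.18. The factors themselves were expressed in all 4 libraries. *Nrf1* was at 59.7 and 62.4 CPM in EV RV, against 63.6 and 65.0 CPM in Tox RV, and its log2 fold change was 0.07 ± 0.16 (SE). *Gabpa* was at 69.3 and 93.2 CPM in EV RV, against 93.0 and 101.7 CPM in Tox RV, with EV RV replicate 1 lowest. *Yy1* was at 88.2 and 87.2 CPM in EV RV, against 89.1 and 93.8 CPM in Tox RV. The log2 fold changes of *Gabpa* and *Yy1* were 0.26 ± 0.20 and 0.06 ± 0.16 (SE).

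Complex I oxidizes NADH. Its 37 genes had a median log2 fold change of 0.16, with 31 above 0 and 6 below, and 12 had each Tox RV library above each EV RV library, which over all genes was 18.6%. EV RV replicate 1 was lowest for 33 of the 37. The following genes encode subunits that carry the reaction. *Ndufs1*, the largest iron-sulfur subunit, was at 69.7 and 88.9 CPM in EV RV, against 90.8 and 94.4 CPM in Tox RV. *Ndufv1*, which binds NADH and FMN, was at 51.2 and 67.5 CPM in EV RV, against 65.1 and 76.4 CPM in Tox RV. The groups were apart for *Ndufs1* by a narrow gap and overlapped for *Ndufv1*, and both log2 fold changes (0.22 ± 0.19 and 0.25 ± 0.21, SE) were near the size of their errors. *Ndufv2*, the iron-sulfur partner of *Ndufv1*, had the largest log2 fold change of the complex, 0.33 ± 0.18 (SE), from 60.2 and 72.2 CPM in EV RV, against 79.3 and 86.6 CPM in Tox RV. The groups did not overlap, and its adjusted p was 0.897 in edgeR.

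The accessory subunit *Ndufv3* had the highest mean level of the complex, 310 TPM, and was at 64.4 and 92.0 CPM in EV RV, against 84.4 and 90.1 CPM in Tox RV, with the Tox RV values inside the EV RV range. On the log2 scale the EV RV libraries differed most within the complex for *Ndufa1*, a small membrane subunit chosen after its values were seen. It was at 11.8 and 29.5 CPM in EV RV, against 22.4 and 24.5 CPM in Tox RV. *Ndufs7*, an iron-sulfur subunit also chosen after its values were seen, was highest in EV RV replicate 1, at 31.4 and 24.1 CPM in EV RV, against 23.5 and 23.0 CPM in Tox RV. It was the only complex I gene with both Tox RV libraries below both EV RV libraries (log2 fold change -0.26 ± 0.20, SE), and the gap to EV RV replicate 2 was narrow.

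*Ndufa4* was named as a complex I subunit and is now assigned to complex IV, and *Ndufa4l2* is its paralog, known as a target of hypoxia signalling. *Ndufa4* was at 22.3 and 52.2 CPM in EV RV, against 31.9 and 48.3 CPM in Tox RV. Replicate 1 was the lower library in both groups, and the groups overlapped. *Ndufa4l2* was near the limit of detection with 12 and 39 counts in EV RV, against 24 and 15 in Tox RV, and its log2 fold change was -0.27 ± 0.53 (SE).

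Complex II, succinate dehydrogenase, also serves the TCA cycle and is the only complex of the chain with no subunit encoded by mitochondrial DNA. Its 4 genes gave the narrowest set of log2 fold changes, from 0.13 to 0.19. *Sdha* was at 132 and 142 CPM in EV RV, against 147 and 158 CPM in Tox RV, without overlap. *Sdhb*, the iron-sulfur subunit and the gene with the highest mean level of the complex (175 TPM), was at 88.5 and 108 CPM in EV RV, against 107 and 114 CPM in Tox RV. The membrane anchors *Sdhc* and *Sdhd* were at 43.4 and 53.6 CPM and at 62.8 and 94.4 CPM in EV RV, and at 52.7 and 53.7 CPM and 83.4 and 96.0 CPM in Tox RV. For these 3 genes the EV RV and Tox RV values overlapped, with EV RV replicate 1 lowest. Separation as for *Sdha*, with both Tox RV libraries higher, was found in 18.6% of all genes tested.

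Complex III passes electrons from coenzyme Q to cytochrome c. None of its 9 genes separated the groups in either direction, and the median log2 fold change was 0.11. *Cyc1* (cytochrome c1) was at 52.0 and 67.8 CPM in EV RV, against 56.7 and 62.2 CPM in Tox RV, with Tox RV inside the EV RV range and a log2 fold change of -0.01 ± 0.20 (SE). The Rieske iron-sulfur protein *Uqcrfs1* was at 77.4 and 102 CPM in EV RV, against 90.4 and 96.1 CPM in Tox RV, again inside that range. *Uqcrc1*, a core protein, was nearly level in all libraries, at 131 and 134 CPM in EV RV, against 132 and 140 CPM in Tox RV. Its partner *Uqcrc2* had the largest log2 fold change of the complex, 0.20 ± 0.20 (SE), at 95.0 and 129 CPM in EV RV, against 131 and 127 CPM in Tox RV. EV RV replicate 1 was alone on the low side. *Uqcrh*, the hinge protein, had the highest mean level of the complex, 489 TPM, and was at 123 and 123 CPM in EV RV, against 143 and 122 CPM in Tox RV. For *Uqcrh* the EV RV libraries were level and Tox RV replicate 2 was lowest.

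Complex IV, cytochrome c oxidase, reduces oxygen. Of its 15 genes tested, 13 had a log2 fold change above 0, and 5 had each Tox RV library above each EV RV library, against 18.6% of all genes. *Cox4i1*, which carries the ubiquitous form of subunit IV, had the highest mean level of the complex, 608 TPM. It stood at 205 and 232 CPM in EV RV, against 234 and 235 CPM in Tox RV. The groups were apart by a gap far smaller than the distance between the EV RV libraries (log2 fold change 0.10 ± 0.17, SE). *Cox5b*, which binds zinc, was at 83.6 and 121 CPM in EV RV, against 119 and 127 CPM in Tox RV, with overlap.

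*Cox6a1* was 1 of the 3 OXPHOS genes with both Tox RV libraries below both EV RV libraries, at 86.3 and 87.4 CPM in EV RV, against 70.4 and 85.3 CPM in Tox RV. Tox RV replicate 2 was close to EV RV, and most of the difference lay in Tox RV replicate 1. *Cox7c*, chosen after its values were seen, had the largest log2 fold change among the abundant genes of the complex (0.35 ± 0.23, SE) and was at 55.1 and 82.7 CPM in EV RV, against 86.9 and 88.3 CPM in Tox RV. *Cox6b1*, *Cox7b* and *Cox8a*, further small subunits, overlapped between the groups, and their log2 fold changes were 0.14 ± 0.18, -0.00018 ± 0.21 and 0.05 ± 0.18 (SE).

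Several complex IV subunits have a copy restricted to muscle, lung, testis or other tissues. These copies took a small part of their family in each library. *Cox4i2* (chr2:152753916-152765039, plus strand, GRCm38.p6), the copy of lung and of cells that sense oxygen, was at 0.76 and 0.60 CPM in EV RV, against 1.96 and 1.12 CPM in Tox RV, from 32, 46, 124 and 58 counts. The Tox RV values were both above the EV RV values, and Tox RV replicate 1 was well above replicate 2. The log2 fold change was 1.19 ± 0.43 (SE), at an unadjusted p of 0.0348 and an adjusted p of 0.897 in edgeR, which over the alternative settings ran from 0.237 to 1.000. *Cox4i2* was 0.27% to 0.84% of the TPM of *Cox4i1* and *Cox4i2* together. Its log2 fold change was 0.71 without Tox RV replicate 1 and 1.53 without Tox RV replicate 2.

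*Cox6a2* (chr7:128205435-128206366, minus strand, GRCm38.p6), the copy of heart and skeletal muscle, had 0 and 9 counts in EV RV, against 19 and 17 in Tox RV. The groups did not overlap, but the fitted log2 fold change of 2.13 ± 0.98 (SE) rests on few counts and varied with the fit. It was 1.39 without EV RV replicate 1, 7.05 without EV RV replicate 2 (where the EV RV library left is at 0, so that the value is no bound) and 0.71 with limma on log2(TPM + 1). *Cox6a2* reached 10 counts only in the Tox RV libraries, so its place among the genes tested, and among those higher in Tox RV, was in part fixed by the filter. Its exons share 70 bases with *Itgad* on the opposite strand. *Cox7a1*, another muscle copy, had 22 and 49 counts in EV RV, against 55 and 36 in Tox RV (log2 fold change 0.42 ± 0.41, SE). *Cox6b2*, a testis copy, had 48 and 40 counts in EV RV, against 78 and 39 in Tox RV (0.28 ± 0.53, SE). Both of the last had errors about as large as the difference or larger.

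**Figure D4:**
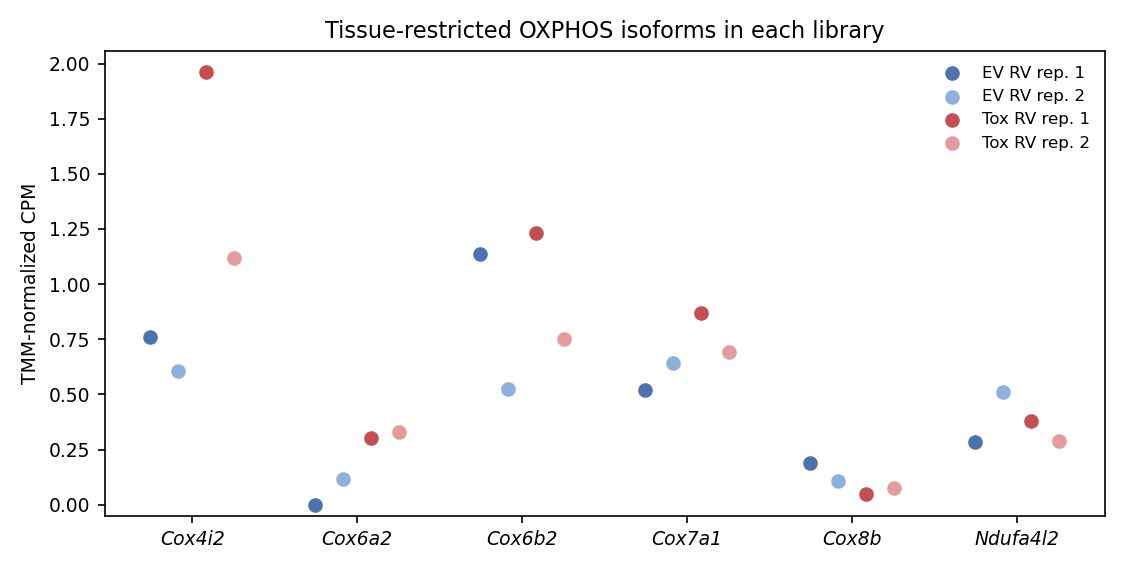
CPM of tissue-restricted OXPHOS copies in each library, on an axis that starts at 0. *Cox4i2* in Tox RV replicate 1 is the highest point at 1.96 CPM, and for *Cox6b2*, *Cox8b* and *Ndufa4l2* the Tox RV points are not above the EV RV points as a group.

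*Cox7a2l* differs from these copies in that it is abundant in T cells. Its product is known for a role in joining complexes III and IV into supercomplexes, and whether it does so in these cells was not tested. *Cox7a2l* was at 192 and 158 CPM in EV RV, against 226 and 187 CPM in Tox RV. Replicate 1 was the higher library in both groups, and the groups overlapped. *Cox7a2*, the common subunit, was at 62.4 and 101 CPM in EV RV, against 86.1 and 94.0 CPM in Tox RV. The share of *Cox7a2l* in the TPM of the Cox7a family was 65.7% and 49.3% in EV RV, against 62.0% and 55.4% in Tox RV, so Tox RV lay inside the EV RV range.

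Complex V makes ATP. Of its 17 genes, 15 had a log2 fold change above 0, and the median was 0.14. The F1 head is built from alpha and beta subunits, of which beta is catalytic. *Atp5b* (beta), which had the highest mean level of all OXPHOS genes at 926 TPM, was at 800 and 1131 CPM in EV RV, against 1014 and 1117 CPM in Tox RV, and *Atp5a1* (alpha) was at 538 and 744 CPM in EV RV, against 695 and 759 CPM in Tox RV. In both genes EV RV replicate 1 was low and the other 3 libraries lay together, with log2 fold changes of 0.14 ± 0.21 and 0.18 ± 0.21 (SE).

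*Atp5f1* (chr3:105942698-105959263, minus strand, GRCm38.p6), which encodes subunit b of the peripheral stalk and is now named *Atp5pb*, had the largest log2 fold change of the complex, 0.44 ± 0.24 (SE). It was at 132 and 202 CPM in EV RV, against 223 and 228 CPM in Tox RV. The Tox RV libraries were both above the EV RV libraries and close to each other, and most of the difference lay in EV RV replicate 1. Its exons share 337 bases with *Wdr77* on the opposite strand. The adjusted p was 0.897 in edgeR, and over the alternative settings it ran from 0.0436 without EV RV replicate 2 to 1.000. Its log2 fold change was 0.16 without EV RV replicate 1. *Atp5c1*, the gamma subunit of the central stalk, was chosen after its values were seen and followed the same pattern, at 117 and 185 CPM in EV RV, against 187 and 198 CPM in Tox RV.

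The other subunits of the central stalk had fitted values below 0 that did not pass the test. *Atp5d* (delta) had the smallest log2 fold change of the complex, -0.25 ± 0.21 (SE), and was at 144 and 103 CPM in EV RV, against 107 and 101 CPM in Tox RV. The groups overlapped, EV RV replicate 1 was alone on the high side, and without it the log2 fold change was 0.01. *Atp5e* (epsilon), chosen after its values were seen, was at 69.3 and 80.5 CPM in EV RV, against 64.1 and 66.4 CPM in Tox RV, with both Tox RV libraries below both EV RV libraries. Its log2 fold change was -0.20 ± 0.17 (SE).

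*Atp5g1*, *Atp5g2* and *Atp5g3* encode the same mature subunit c, the rotor ring, with different import peptides. *Atp5g2* gave 42.6% to 45.7% of their summed TPM over the 4 libraries, *Atp5g3* 30.9% to 32.9% and *Atp5g1* 23.3% to 26.6%. The order was the same in each library. Their log2 fold changes were 0.18 ± 0.27, 0.17 ± 0.26 and 0.10 ± 0.21 (SE). *Atp5s* and *Atp5sl* match the symbol rule but are not subunits of the core enzyme. *Atp5s*, coupling factor B, had 59 and 97 counts in EV RV, against 99 and 104 in Tox RV, and *Atp5sl*, linked to complex I assembly, was at 22.9 and 19.5 CPM in EV RV, against 22.5 and 26.1 CPM in Tox RV.

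Other genes around the chain were read from lists. Of 45 assembly factors tested, 37 had a log2 fold change above 0 and the median was 0.15. Each Tox RV library exceeded each EV RV library for 20 of the 45, against 18.6% of all genes, and EV RV replicate 1 was lowest for 31, against 37%. Against EV RV replicate 2 alone, the median of the assembly factors was 0.07 and that of the OXPHOS genes -0.03. None passed an adjusted p below 0.05 in edgeR. *Sco2*, a copper chaperone for complex IV named after its values were seen, was the 1 of 45 with an unadjusted p below 0.05 (0.0272, edgeR). Over all genes tested that share was 3.62%, so the count is not a result about assembly factors. *Sco2* was at 6.19 and 6.20 CPM in EV RV, against 11.5 and 8.54 CPM in Tox RV, with a log2 fold change of 0.70 ± 0.24 (SE) and an adjusted p of 0.897. The EV RV libraries were level and both below Tox RV. Of 17 genes of the TCA cycle, 14 were above 0 (median 0.15), as were 9 of 13 genes of coenzyme Q synthesis (median 0.05). The subunits and carriers outside the symbol rule, such as cytochrome c (*Cycs*), were above 0 for 6 of 7, with a median of 0.24. In none of these lists did a gene pass an adjusted p below 0.05 in edgeR. Of the 13 mitochondrially encoded subunits, 0 were found among the genes listed by the symbols searched, so they could not be followed.

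Of 15 tested regulators of mitochondrial genes, 11 were above 0, with a median of 0.07. *Myc*, which drives growth and mitochondrial genes in activated T cells, was the 1 of 15 with an unadjusted p below 0.05 (0.0472, edgeR). Over all genes tested that share was 3.62%. *Myc* was at 226 and 166 CPM in EV RV, against 147 and 117 CPM in Tox RV. Its log2 fold change was -0.57 ± 0.23 (SE), with an adjusted p of 0.897 in edgeR. The groups did not overlap, and EV RV replicate 1 was highest. *Tfam*, which packages and transcribes mitochondrial DNA, was at 37.6 and 49.2 CPM in EV RV, against 48.3 and 51.5 CPM in Tox RV, with EV RV replicate 1 lowest as for most OXPHOS genes.

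**Figure D5:**
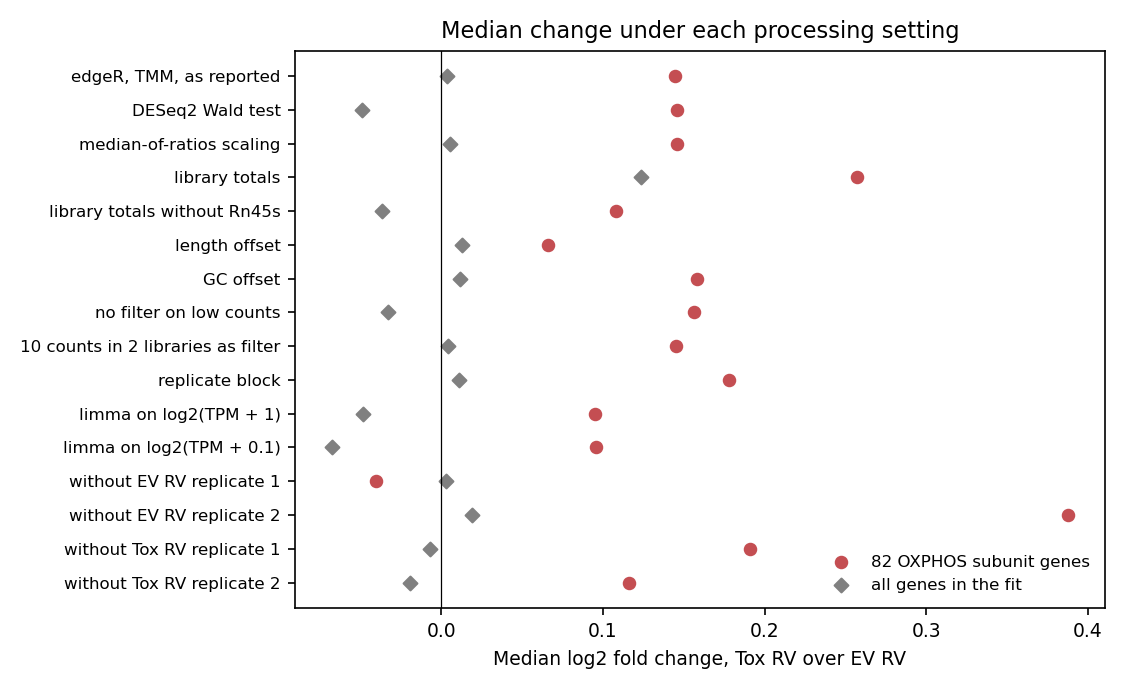
Median log2 fold change of the 82 OXPHOS genes and of all genes in the fit under each processing setting. The OXPHOS median lies between 0.07 and 0.26 in all settings that keep the 4 libraries, and moves to -0.04 without EV RV replicate 1 and to 0.39 without EV RV replicate 2.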

How the data were processed

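RNA-seq libraries of GFP+ CD4 T cells (2 EV RV and 2 Tox RV) were grouped by their titles. By the methods, the authors aligned reads to mm10 transcripts with Bowtie and quantified genes with RSEM, 1 library per file. The labels list both Bowtie and Bowtie2. The deposited expected counts are RSEM estimates that are not normalized, and the deposited TPM values are computed by RSEM per transcript length and sum to 1000000 in each library. FPKM, deposited from the same RSEM run, served no result. A table of the whole series named TPM does not sum to 1000000 per column and was not used here. Tool versions and use of strand are not given in the sources used here. RSEM divides reads among similar genes: 0 of the 82 OXPHOS genes had a whole count (within 0.005) in all 4 libraries, and 73 in none. Among the 19316 genes with a count, 3714 had a whole count in all 4 libraries and 11867 in none. Exons of 22 OXPHOS genes overlap another gene, 20 of them on the opposite strand, so these counts are uncertain.

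Rounded expected counts were fitted with edgeR 4.0.16 in R 4.3.3 (filterByExpr with a minimum count of 10, TMM scaling, glmQLFit and glmQLFTest, no block). Adjustment of p-values was by Benjamini-Hochberg over all 14143 genes. Log2 CPM used a prior count of 2, and each SE is the size of the log2 fold change divided by the square root of its F statistic. Alternatives were DESeq2 1.42.0, which the authors used, limma 3.58.1 on log2(TPM + 1) and log2(TPM + 0.1), other scalings and filters, a length offset, a replicate block, each library left out, and a GC offset chosen after seeing the data. The fit was tested on simulated data.

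The genes and lists were chosen with earlier results of these data known. Named genes were, for each complex, those with the highest mean TPM and the largest and smallest log2 fold change, genes past a threshold, 12 defining subunits, and families with a tissue-restricted copy. Others are marked where they appear, and a gene that the rule names is not reported here. Numbers give the spread between libraries, and depth limits the low-count copies.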

Additional observations from a re-analysis of the deposited data

How the results depend on the processing

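The OXPHOS median turned in sign without EV RV replicate 1 and kept its sign under the other settings tried, and the median of complex III also turned with the length offset (-0.0013). Its value was 0.07 to 0.26 under the alternatives that kept the 4 libraries, the lowest with the length offset and the highest with library totals, which moved the median of all genes to 0.12. With each library left out in turn it ran from -0.040 to 0.39, and from -0.037 to 0.41 in complex I, 0.0038 to 0.31 in complex II, -0.14 to 0.42 in complex III, 0.01 to 0.31 in complex IV and -0.075 to 0.35 in complex V, lowest without EV RV replicate 1 and highest without EV RV replicate 2. The number of genes called over the whole table was 22 with DESeq2, 22 with no filter on low counts and 1 to 600 with a library left out, where the lone library of a group is assumed to vary like the other group. OXPHOS genes called were 0 to 3 with a library left out and 0 otherwise. OXPHOS genes with each Tox RV library above each EV RV library were 14 with limma on log2(TPM + 1), 14 on log2(TPM + 0.1), 18 with library totals without *Rn45s* and 30 with library totals. Those below were 1 with library totals, 5 with the length offset and 1 with the GC offset. The shares over all genes were not computed under these settings, so these counts cannot be set against the 18.6% and 17.4% of the main fit. With the replicate number as a block, 16 of 14143 genes and 0 OXPHOS genes were called, and the OXPHOS median was 0.18. At an unadjusted p below 0.05 in that edgeR fit there were 3 of 82 OXPHOS genes, against 1232 of all 14143 genes. Replicate differences of the groups correlated at 0.30 over all genes, but with 2 pairs the samples share only a number.

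Of 35 named OXPHOS genes, 0 passed the threshold under the alternatives that kept the 4 libraries. Of 385 single-gene values, 17 turned in sign, to values from -0.062 to 0.12. With the length offset these were *Uqcrh* (-0.016), *Uqcrc1* (-0.0013), *Uqcrfs1* (-0.0051) and *Cox8a* (-0.062). With limma on either pseudocount they were *Uqcrc1* (-0.042 with each), *Uqcrfs1* (-0.017 with each) and *Cox8a* (-0.021 with each). *Cyc1* was 0.10 with library totals and 0.013 with the GC offset. *Cox7b* was 0.00049 with DESeq2, 0.00051 with median-of-ratios scaling, 0.12 with library totals, 0.011 with no filter and 0.00087 with a filter of 10 counts in 2 libraries. With a library left out, 19 genes turned in sign, and their ranges were -0.084 to 0.44 for *Ndufv3*, -0.61 to 0.24 for *Ndufa4l2*, -0.081 to 0.52 for *Sdhd*, -0.018 to 0.30 for *Sdhc*, -0.020 to 0.22 for *Uqcrh*, -0.0077 to 0.45 for *Uqcrc2*, -0.20 to 0.20 for *Cyc1*, -0.093 to 0.42 for *Atp5b*, -0.46 to 0.0068 for *Atp5d*, -0.14 to 0.27 for *Uqcrfs1*, -0.040 to 0.44 for *Atp5a1*, -0.18 to 0.92 for *Cox6b2*, -0.18 to 0.53 for *Cox7a2*, -0.21 to 0.18 for *Cox7b*, -0.11 to 0.23 for *Cox8a*, -0.39 to 0.85 for *Ndufa4*, -0.12 to 0.35 for *Atp5g1*, -0.14 to 0.58 for *Atp5g2* and -0.15 to 0.57 for *Atp5g3*. Apart from the fits that leave out a library, the cause of a turn in sign was not tested.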
